A study of Homo sapiens with 4 samples.

Results

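Genes of cholesterol and fatty acid synthesis were examined in the colorectal cancer line SW480, an established line in which the homeobox gene HOXA5 had been knocked down or overexpressed by transduction. The set was a list of 34 genes of these pathways, found on the arrays as probe sets that the platform annotation gives to 1 gene alone. Of the 34 genes, 31 were measured this way, on 70 probe sets, out of 19775 genes on 41091 such probe sets in all. They were 17 genes of the sterol branch, 5 regulators and 9 genes of the fatty acid branch. CYP51A1 and FADS1 were listed together with a second gene on every probe set that names them, and FDFT1 was not analysed here. Total RNA from 2 samples with a HOXA5 knock-down and 2 with HOXA5 overexpression, per their titles, was hybridised to Affymetrix arrays, and no untransduced or empty-vector sample was among them. All the cells were grown in the same medium with serum, and the labels say neither whether replicates were separate cultures nor which constructs were used. The p-values therefore measure the spread between these arrays, which may be technical. HOXA5 itself was not analysed here, so the labels were not checked against the gene they name. Each difference below is the overexpressing mean minus the knock-down mean and cannot be assigned to either manipulation alone.

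Values were RMA log2 expression. RMA makes arrays alike, with medians of 5.77 to 5.81. Correlations over all probe sets were 0.997 within each group and 0.991 to 0.993 across groups. KRT18 and KRT8, keratins of simple epithelia, were at 13.79 to 13.86 and 12.84 to 13.03 in the 4 arrays. The other colorectal epithelial markers had mean levels from 2.97 (KRT20) to 6.89 (KRT19). The fibroblast marker COL1A1 had a mean level of 9.45. Some of the epithelial markers differed between the groups. EPCAM, an epithelial adhesion molecule, was at 3.81 and 3.65 in the knock-down arrays and at 8.80 and 8.75 in the overexpressing arrays, and KRT19 at 4.74 and 4.65 against 9.08 and 9.08. Of 12 colorectal epithelial markers, 4 were called higher (also CLDN4 and CDX2) and none lower, at an adjusted p of 0.05 in limma. Among all genes, 2.74% were called higher and 2.03% lower. KRT20, a marker of terminal differentiation, was at 2.95 and 2.998 in the knock-down arrays and at 2.97 in both overexpressing arrays. None of 6 fibroblast, 5 blood cell and 5 endothelial markers passed the test in limma, with 1, 0 and 1 of them at an unadjusted p under 0.05. The part of these epithelial differences in the lipid gene results was not tested.

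Cholesterol is built from acetyl units through mevalonate, isoprenoid diphosphates, squalene and lanosterol, and fatty acids from the same acetyl units through malonyl units. Many enzymes of both branches are transcribed under sterol regulatory element binding proteins, which SREBF1 and SREBF2 encode. These factors are held in the endoplasmic reticulum with the escort protein SCAP and the INSIG proteins while sterols are plentiful, and they are released by proteolysis when sterols run low. INSIG1, HMGCS1 and SQLE are among the best known targets of this feedback, and intestinal epithelium and its tumours make cholesterol in this way.

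Most of the lipid synthesis genes stood slightly lower in the overexpressing arrays, but few passed the test. In limma, 5 of the 31 fell (HMGCS1, SQLE, MSMO1, INSIG1 and FAR2), 1 rose (TM7SF2) and 25 did not pass an adjusted p of 0.05. Among all genes, 2.03% were called lower and 2.74% higher by the same rule. In the sterol branch 3 of 17 fell and 1 rose, among the regulators 1 of 5 fell and none rose, and in the fatty acid branch 1 of 9 fell and none rose; 7, 1 and 3 genes of these branches had an unadjusted p under 0.05, as did 18.6% of all genes. The median difference was -0.13 in the sterol branch and -0.16 in the fatty acid branch, beside -0.02 over all genes. Differences were below 0 for 13 of the 17 sterol genes, all 5 regulators and 8 of the 9 fatty acid genes, beside 56.4% of all genes. In 7 lists of neighbouring processes, described below, the share ran from 57.1% (fatty acid elongation, desaturation and activation) to 81.8% (glycerolipid synthesis).

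Counting only whether both overexpressing arrays lay below both knock-down arrays, 9 of the 17 sterol genes, 2 of the 5 regulators and 6 of the 9 fatty acid genes did so. Over all genes this held for 27.8%, and in the lists of neighbouring processes for 33.3% to 50%. Both overexpressing arrays lay above both knock-down arrays for 3 sterol genes and for no other member, beside 19.1% of all genes. Most of these genes are bright on the arrays, so the shares were also taken over bright genes, a comparison added after the values were seen. Of the 3768 genes at or above the members' median level of 9.30, 36.2% lay wholly lower, 2.02% were called lower and 1.8% higher, and the median difference was -0.02. The plot of values by array shows this pattern for each gene.

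**Figure D1:**
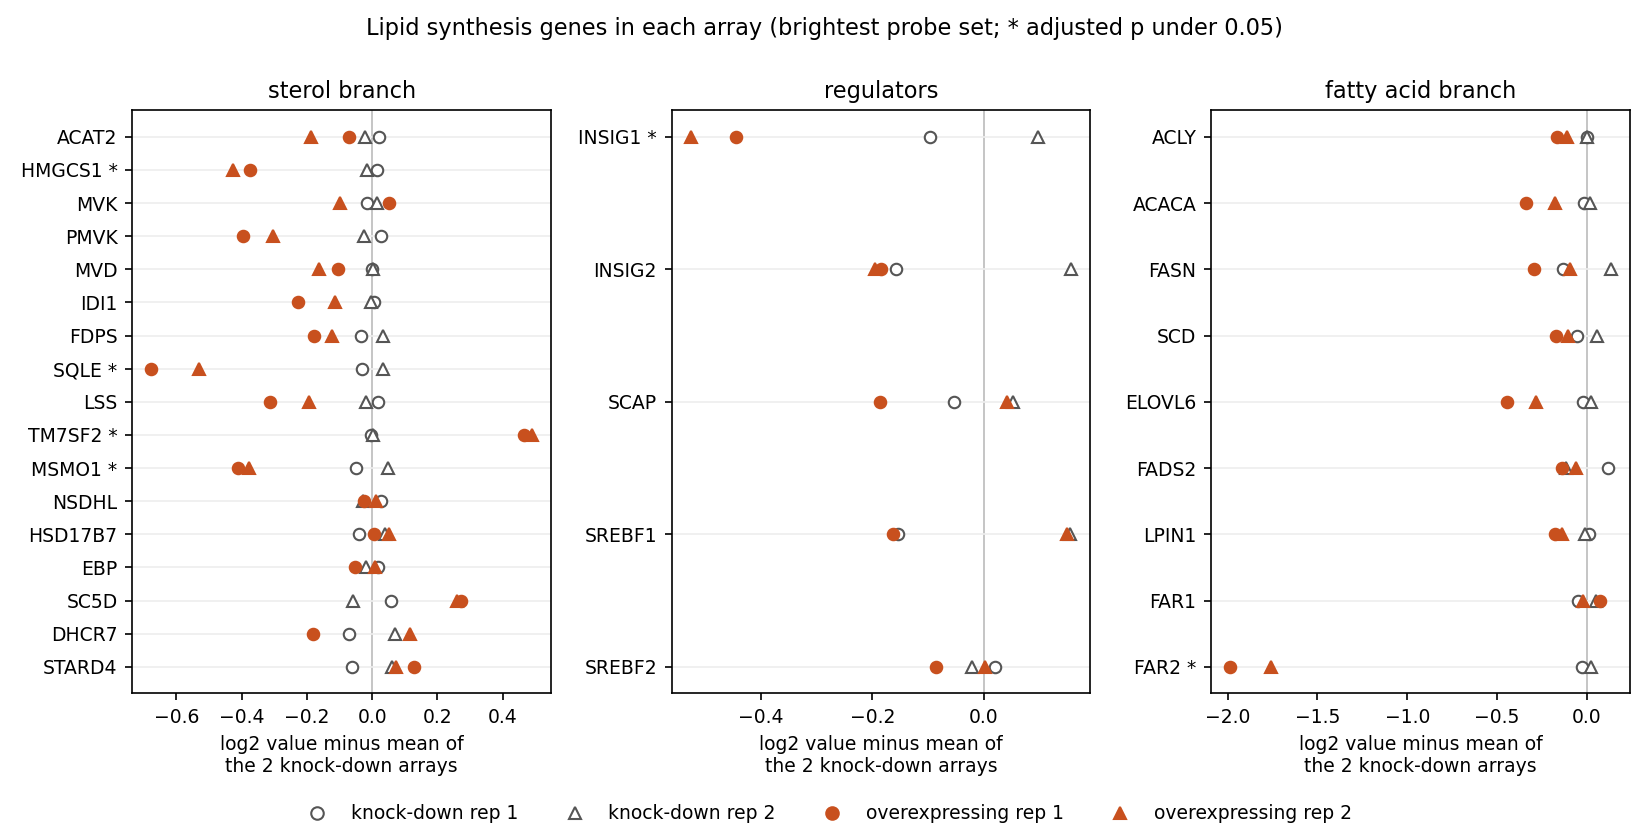
Log2 value of each gene in each of the 4 arrays minus the mean of the 2 knock-down arrays, by branch, on the brightest probe set of the gene; open symbols are knock-down, filled symbols overexpressing, and the 3 panels have separate horizontal scales. HMGCS1, SQLE, MSMO1, INSIG1 and FAR2 lie to the left of 0 in both overexpressing arrays and TM7SF2 to the right, whereas the points of SREBF1 are placed by replicate number.

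Promoter sequences of 5 of the 6 genes that passed the test are shown to let their shared motifs be seen, together with that of SREBF2, the one measured member with a full sterol element match. Sequences came from RefSeq (GRCh38.p14), and 28 of the 31 genes had a window (not SQLE, ACAT2 and FASN). Each run below is the 250 bases upstream of the start, 5′ to 3′ on the strand of the gene, and for HMGCS1 and FAR2, with 2 starts each, of the start farthest upstream. HMGCS1 (hydroxymethylglutaryl-CoA synthase) lies at chr5:43313413-43313662, minus strand. MSMO1 (a sterol methyl oxidase) lies at chr4:165327419-165327668, plus strand, and INSIG1 at chr7:155297628-155297877, plus strand. TM7SF2 (a sterol reductase) lies at chr11:65111622-65111871, plus strand, SREBF2 at chr22:41832855-41833104, plus strand, and FAR2 (a fatty acyl-CoA reductase) at chr12:29149028-29149277, plus strand. Capitals mark matches on either strand to TCACNCCAC (a sterol regulatory element), CCAAT (the box bound by NF-Y, a partner of the sterol factors; ATTGG on the other strand) and GGGCGG (a box of Sp1; CCGCCC on the other strand). Matches did not overlap in these windows except for 1 pair of GGGCGG matches in INSIG1.
HMGCS1: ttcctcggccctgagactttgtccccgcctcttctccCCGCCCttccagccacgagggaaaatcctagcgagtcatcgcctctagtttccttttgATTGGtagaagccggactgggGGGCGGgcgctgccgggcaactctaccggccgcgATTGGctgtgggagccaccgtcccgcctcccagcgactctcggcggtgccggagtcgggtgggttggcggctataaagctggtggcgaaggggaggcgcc
MSMO1: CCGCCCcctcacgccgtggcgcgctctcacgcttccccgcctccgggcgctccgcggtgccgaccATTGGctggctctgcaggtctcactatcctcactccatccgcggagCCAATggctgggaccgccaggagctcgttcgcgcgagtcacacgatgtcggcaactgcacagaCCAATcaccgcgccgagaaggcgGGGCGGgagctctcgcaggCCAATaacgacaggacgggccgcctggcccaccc
INSIG1: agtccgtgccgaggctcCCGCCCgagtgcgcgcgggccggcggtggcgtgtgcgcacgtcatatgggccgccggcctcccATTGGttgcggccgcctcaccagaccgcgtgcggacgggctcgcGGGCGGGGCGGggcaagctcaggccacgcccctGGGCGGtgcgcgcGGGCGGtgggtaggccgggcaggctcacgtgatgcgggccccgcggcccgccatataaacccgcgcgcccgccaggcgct
TM7SF2: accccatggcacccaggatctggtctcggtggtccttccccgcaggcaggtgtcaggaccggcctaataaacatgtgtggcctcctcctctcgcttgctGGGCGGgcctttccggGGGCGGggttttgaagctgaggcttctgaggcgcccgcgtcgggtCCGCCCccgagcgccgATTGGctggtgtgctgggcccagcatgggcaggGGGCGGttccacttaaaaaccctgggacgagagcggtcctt
SREBF2: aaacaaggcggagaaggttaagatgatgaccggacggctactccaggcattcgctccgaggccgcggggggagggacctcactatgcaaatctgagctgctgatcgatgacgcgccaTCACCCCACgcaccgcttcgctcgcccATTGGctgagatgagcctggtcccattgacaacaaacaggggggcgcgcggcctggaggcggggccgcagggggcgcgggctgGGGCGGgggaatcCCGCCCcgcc
FAR2: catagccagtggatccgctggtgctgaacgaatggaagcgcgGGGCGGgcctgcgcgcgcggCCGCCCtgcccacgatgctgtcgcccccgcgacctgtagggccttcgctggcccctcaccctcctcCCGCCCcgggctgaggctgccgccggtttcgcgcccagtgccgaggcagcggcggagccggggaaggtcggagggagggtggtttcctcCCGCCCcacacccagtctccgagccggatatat

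The sterol element match was in 1 of the 28 genes, SREBF2, beside 1.09% of all 27305 genes (1 of 41 windows of these genes and 0.883% of all 35116 windows of this length). The CCAAT box was in 14 of the 15 measured sterol genes with a window, PMVK being the exception. Of the other measured genes with a window, 2 of 5 regulators and 4 of 8 fatty acid genes had it, beside 37% of all genes. HMGCS1 had 2 such boxes, MSMO1 had 4, INSIG1 and TM7SF2 had 1 each, and the printed FAR2 window had none. It was found on both sides of the calls, being present in 3 of the 4 genes that fell and have a window, in TM7SF2, which rose, and in 16 of the 23 that did not pass. The GGGCGG box was in 27 of the 28 genes, beside 46.2% of all genes. A match is a description of letters in this window and says nothing of binding.

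The early sterol steps, from acetyl units to farnesyl diphosphate, had 7 of 7 differences below 0 on the brightest probe sets, of which 1 passed. The share below 0 was 56.4% over all genes and 58.7% over the bright genes. HMGCS1, which makes hydroxymethylglutaryl-CoA, was at 9.01 and 8.98 in the knock-down arrays and at 8.62 and 8.57 in the overexpressing arrays. The groups did not overlap, and the gene fell 1.32-fold (log2 difference -0.40 ± 0.07, SE, n = 2 per group, adjusted p = 0.0387). Its second probe set gave -0.43. PMVK, the phosphomevalonate kinase, was at 10.41 and 10.36 against 9.99 and 10.08. These values did not overlap either, but the difference of -0.35 (95% interval -0.54 to -0.16) missed the threshold (adjusted p = 0.067). The thiolase ACAT2 (-0.13), the decarboxylase MVD (-0.13), the isomerase IDI1 (-0.17) and the farnesyl diphosphate synthase FDPS (-0.15) lay lower in both overexpressing arrays on their brightest probe sets without passing. For IDI1, 1 other set gave -0.14, but the remaining ones overlapped between the groups at 0.08 and 0.16, and the mean of its 4 sets was -0.02. MVK, the mevalonate kinase, overlapped between the groups at -0.02 (interval -0.23 to 0.18), whereas 2 of its weaker sets were lower in both overexpressing arrays (-0.21 and -0.14) and 1 overlapped (0.04). On the brightest set, 6 of these 7 genes lay wholly lower, beside 27.8% of all genes and 36.2% of the bright genes.

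The measured enzymes of lanosterol formation were SQLE, which passed, and LSS, which did not. SQLE, squalene epoxidase, a rate-limiting oxygenase of the pathway, was at 9.65 and 9.71 in the knock-down arrays and at 9.002 and 9.15 in the overexpressing arrays. It fell 1.52-fold (-0.60 ± 0.09, adjusted p = 0.0148), the largest fall of the sterol branch. Its 4 probe sets disagreed. One of the weaker sets gave -0.61, whereas another read 8.33 and 8.94 against 8.80 and 8.98 (0.25), and the dimmest gave -0.03. LSS, lanosterol synthase, stood lower in both overexpressing arrays (-0.25, interval -0.45 to -0.06) and did not pass (adjusted p = 0.161). Its weaker sets gave -0.02 and -0.08.

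The late steps, from lanosterol to cholesterol, showed no common direction. MSMO1, which removes methyl groups from the ring system, was at 9.50 and 9.60 against 9.14 and 9.17 and fell 1.31-fold (-0.40 ± 0.08, adjusted p = 0.0472). TM7SF2, a sterol reductase that acts just before it, went the other way. It was at 6.32 in both knock-down arrays and at 6.79 and 6.81 in the overexpressing arrays, a rise of 1.39-fold (0.48 ± 0.07, adjusted p = 0.0194). Both genes rest on a single probe set. SC5D, a sterol desaturase, was also higher in both overexpressing arrays (0.27, interval 0.07 to 0.46) but did not pass (adjusted p = 0.142). The dehydrogenase NSDHL (-0.01), the isomerase EBP (-0.02) and the final reductase DHCR7 (-0.03) overlapped between the groups, with intervals of -0.19 to 0.18, -0.20 to 0.16 and -0.32 to 0.26. Weaker probe sets did not all overlap: the second of NSDHL was higher in both overexpressing arrays (0.15), and 2 of the 3 others of EBP were lower in both (-0.09 and -0.19). HSD17B7, a ketoreductase, was at 0.03 on a probe set whose suffix marks probes that may also match other sequences, as does that of the brightest set of IDI1. The sterol carrier STARD4 was at 0.10 (-0.10 to 0.30). Over all genes 56.4% of differences were below 0, with a median of -0.02. Of the 7 late enzymes 4 were below 0 with a median of -0.01, beside -0.15 for the 7 early ones. This split by step was drawn with the values known and was not tested.

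**Figure D2:**
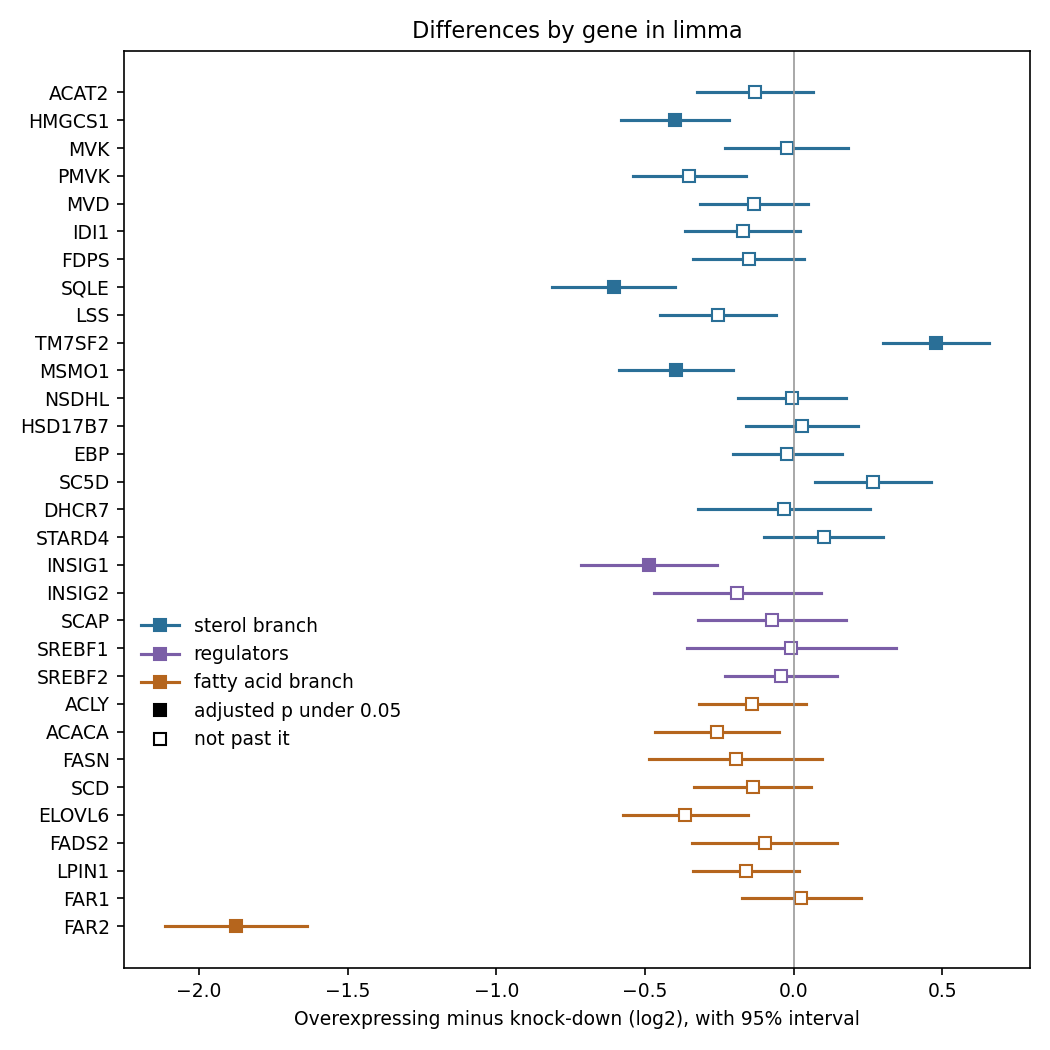
Overexpressing minus knock-down difference of each of the 31 genes on the log2 scale (horizontal axis), with the 95% interval from limma (unadjusted); filled squares passed an adjusted p of 0.05. The sterol genes from ACAT2 to LSS all lie below 0, and the last ones from NSDHL to STARD4 lie between -0.03 and 0.27. Plotted between them, TM7SF2 stands at 0.48 and MSMO1 at -0.40, both past the threshold. FAR2 stands at -1.87.

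Among the regulators, INSIG1 alone passed. INSIG1, which retains the SCAP complex in the endoplasmic reticulum and is itself induced by the sterol factors, was at 9.59 and 9.78 in the knock-down arrays and at 9.24 and 9.16 in the overexpressing arrays. It fell 1.40-fold (-0.49 ± 0.09, adjusted p = 0.0437), and its other probe sets gave -0.41 and -0.32. Its paralog INSIG2 was at 7.12 and 7.44 against 7.10 and 7.09 (-0.19), with the spread in the knock-down arrays. SCAP was at -0.07 (-0.32 to 0.17). SREBF2, whose product mainly drives sterol genes, was at 7.62 and 7.58 against 7.51 and 7.60 (-0.04, interval -0.23 to 0.15), with 0.19 on its dimmest probe set. SREBF1, whose product mainly drives fatty acid genes, read 9.05 in both arrays numbered 1 and 9.36 in both numbered 2. Its group means were 9.21 and 9.20, a difference of -0.01 with a wide interval of -0.36 to 0.34. These are transcript levels and do not show the processed factors.

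The core of fatty acid synthesis lay slightly lower, and no gene of it passed. ACLY, which makes cytosolic acetyl-CoA from citrate, was at 11.58 and 11.59 against 11.42 and 11.47 (-0.14). ACACA, the carboxylase that makes malonyl-CoA, was at 10.03 and 10.06 against 9.71 and 9.87 (-0.26, interval -0.47 to -0.05, adjusted p = 0.179). FASN, the fatty acid synthase, overlapped between the groups at 10.05 and 10.32 against 9.89 and 10.09 (-0.19), and its dimmer probe set gave 0.11. On the brightest set ACLY and ACACA, but not FASN, lay wholly lower. Weaker sets overlapped between the groups at -0.06 for ACLY and -0.07 for ACACA, another of ACLY was lower in both overexpressing arrays (-0.13), and none of the 3 passed.

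On their brightest probe sets the 3 measured members of elongation and desaturation had differences below 0, and none passed. The share below 0 was 56.4% over all genes and 57.1% in the neighbouring list of elongation, desaturation and activation, described below. ELOVL6, which elongates palmitate to stearate, was at 9.87 and 9.92 in the knock-down arrays and at 9.45 and 9.61 in the overexpressing arrays. The groups did not overlap, but the difference of -0.36 (-0.57 to -0.15) missed the threshold (adjusted p = 0.080). Its other probe sets gave -0.34 and -0.06. SCD, the stearoyl desaturase, was at -0.14, and its 4 probe sets lay between -0.17 and -0.10, each lower in both overexpressing arrays. FADS2, a desaturase of polyunsaturated fatty acids, overlapped at -0.10 (-0.34 to 0.15), and its dimmer probe set gave 0.07. LPIN1, a phosphatidate phosphatase of glycerolipid synthesis, lay lower in both overexpressing arrays at -0.16 (-0.34 to 0.02).

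FAR2 changed most of all the lipid synthesis genes. It encodes a reductase that turns fatty acyl-CoA into fatty alcohols, the building blocks of wax esters and ether lipids. FAR2 was at 6.62 and 6.67 in the knock-down arrays and at 4.66 and 4.88 in the overexpressing arrays. It fell 3.66-fold (-1.87 ± 0.10, adjusted p = 2.99e-04), with the overexpressing values not far above the lower quartile of the arrays (4.24 to 4.29). RMA gives no detection call, so this fold is as measured near the low end. A second probe set read 5.45 and 5.30 against 3.56 and 3.78, a difference of -1.71. The third was low in every array, at 3.65 and 4.17 against 3.83 and 4.02 (0.01). FAR1, the paralog with the same activity, was at 7.68 and 7.78 against 7.80 and 7.71. Its difference of 0.03 had an interval of -0.17 to 0.23, which does not overlap that of FAR2 (-2.11 to -1.64), and its other probe sets gave 0.04 and 0.11. The difference between the paralogs was not itself tested.

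Across the set, probe sets of a gene often disagreed in sign. Of the 21 genes with more than 1 probe set, 10 had all of them below 0 (among them HMGCS1, INSIG1, SCD and ELOVL6), 2 had all above 0 (SC5D and FAR1) and 9 were mixed. Tested singly over all probe sets, 3 of the 70 fell, namely 2 of FAR2 and 1 of SQLE, and that of TM7SF2 rose, beside 0.925% lower and 1.91% higher over all probe sets. HMGCS1 (adjusted p = 0.069), MSMO1 (0.079) and INSIG1 (0.072) did not pass that test. As the mean of their probe sets, SQLE (adjusted p = 0.183) and INSIG1 (0.067) did not pass either.

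**Figure D3:**
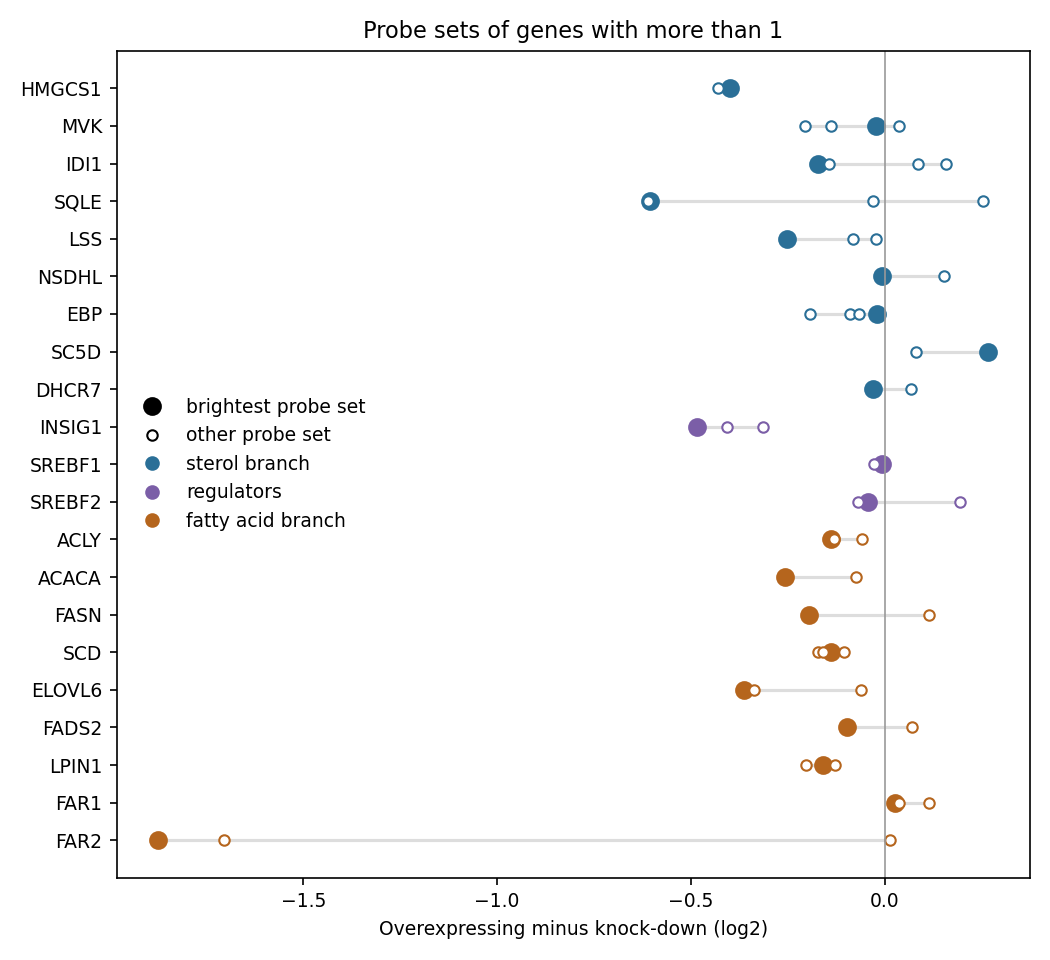
Overexpressing minus knock-down difference (log2, horizontal axis) of every probe set of the 21 genes with more than 1; large filled points are the brightest probe set, small open points the others. The probe sets of SCD and HMGCS1 lie close together, those of SQLE run from -0.61 to 0.25, and of the 3 for FAR2, 2 lie at -1.87 and -1.71 and the dimmest at 0.01.

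Leaving out an array leaves 1 array in a group, which is then assumed to vary like the other group, and 1 residual degree of freedom. With any single array left out, HMGCS1, SQLE, TM7SF2, MSMO1 and INSIG1 each missed the threshold (adjusted p up to 0.298, for MSMO1), while their differences kept their sign and stayed between -0.68 and -0.34 for those that fell and between 0.47 and 0.49 for TM7SF2. FAR2 kept its call in all 4 cases, at -1.99 to -1.76 (adjusted p up to 0.020). Over all genes, 944 passed with 4 arrays and 172 to 237 with 3.

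Genes next to these pathways were read from lists of 7 neighbouring processes, 78 measured genes in all, and the clearest difference was in sterol storage. SOAT1, which esterifies cholesterol for storage, was at 10.50 and 10.64 in the knock-down arrays and at 9.47 and 9.37 in the overexpressing arrays. It fell 2.21-fold (-1.15 ± 0.09, adjusted p = 0.0014), and its other probe sets gave -1.02 and -1.19. SOAT1 kept its call whichever single array was omitted (-1.22 to -1.07, adjusted p up to 0.049). ABCA1, a cholesterol exporter, was low, at 5.01 and 4.89 against 5.51 and 5.45, and rose (0.53, adjusted p = 0.0199). Of its 4 probe sets 2 gave 0.53 and 0.60 and the others 0.03 and -0.24. In this list of sterol export, esterification and trafficking, 1 of 12 rose, 1 fell and 10 did not pass. Among all genes, 2.74% were called higher and 2.03% lower. In the list 4 of the 12 had an unadjusted p under 0.05 in limma, beside 18.6% of all genes.

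**Figure D4:**
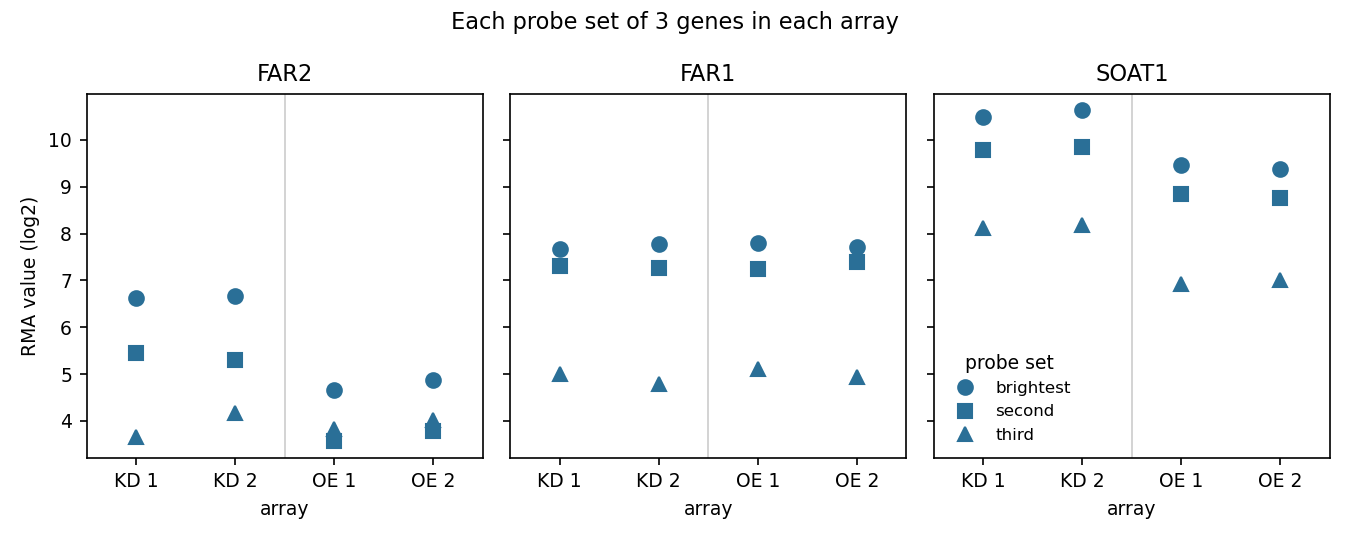
RMA log2 value (vertical axis) of the 3 probe sets each of FAR2, FAR1 and SOAT1 in the 4 arrays (KD, knock-down; OE, overexpressing; 1 and 2, replicate). The brightest FAR2 set drops from 6.62 and 6.67 to 4.66 and 4.88 and all 3 SOAT1 sets are lower in both overexpressing arrays, whereas FAR1 overlaps.

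In the list of fatty acid elongation, desaturation and activation, 2 of 21 rose, 1 fell and 18 did not pass, beside 2.74% called higher and 2.03% lower of all genes. An unadjusted p under 0.05 in limma was found for 13 of the 21, beside 18.6% of all genes. Both overexpressing arrays lay below both knock-down arrays for 10 of them and above for 6, beside 27.8% and 19.1% of all genes. ACSS2, which activates acetate, was at 7.18 and 7.22 against 7.63 and 7.73 and rose (0.48, adjusted p = 0.0257). HSD17B12, a reductase of the elongation cycle, rose (0.55, adjusted p = 0.0491), while ACSL5, an acyl-CoA synthetase of intestinal cells, fell by 0.52 (adjusted p = 0.0326). Of 11 glycerolipid synthesis genes DGAT2, which makes triacylglycerol, fell by 0.47 (adjusted p = 0.0473) and the others did not pass. Neither direction was called in limma among 12 genes of the isoprenoid side branches, 6 of SREBP processing and degradation, 5 of ether lipid and wax ester synthesis and 11 of fatty acid oxidation (2, 0, 1 and 0 at an unadjusted p under 0.05). ABCA1, ACSS2, HSD17B12, ACSL5 and DGAT2 each lost the call whichever single array was omitted, and ABCA1 (adjusted p = 0.146) and HSD17B12 (0.167) also as the mean of their probe sets. Tested as single probe sets, HSD17B12 (0.077), ACSL5 (0.056) and DGAT2 (0.077) did not pass.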

How the data were processed

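The authors deposited log2 expression values of 54675 probe sets in 4 arrays. Per the submitters' processing notes they used RMA and affy; no version is given in the sources used here. The method corrects background, equalises the arrays and summarises the probes, so only differences relative to the other genes of an array remain. Values were used as deposited. The platform annotation gave 41091 probe sets 1 symbol, 1801 several and 11721 none listed (62 were controls). For 41037 of the 41091 the gene identifier was found in RefSeq, and the RefSeq symbol was used. Each gene was read on its brightest probe set by the mean over the 4 arrays. Groups were compared with limma 3.58.1 in R 4.3.3 (lmFit, eBayes, two-sided, Benjamini-Hochberg over 19775 genes, 2 residual degrees of freedom, prior 4.17); standard errors and intervals come from this fit. A single value in 2 against 2 arrays cannot reach an exact permutation p below 0.333. The procedure was tested on simulated data. The number of arrays limits the precision. Every member was named; values by array were given for genes past the threshold and for those without a call whose groups did not overlap and that differed by at least 0.3, other values being shown for context after they were seen; of each neighbour list, the genes past the threshold. The members, lists and alternatives were chosen with earlier results of these data known. Alternatives were an intensity trend with a robust prior, the replicate number as a block, renewed quantile normalization, median centring, the mean of probe sets, single probe sets, leaving dim genes out, other thresholds and leaving out each array.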

Additional observations from a re-analysis of the deposited data

How the results depend on the processing

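On its brightest probe set or the mean of its sets, no called gene changed sign under any alternative. The intensity trend, the block, single probe sets and the filter on dim genes leave the brightest set's difference as it was. They could not change a sign. Weaker sets of called genes did differ in sign, such as a set of SQLE (0.25). Of 405 gene values recomputed for the named genes, 341 kept their side of the threshold, 59 lost a call and 5 gained one. Most of the 405 belong to genes without a call. FAR2 and SOAT1 lost none. The count over all genes was 944, and it was 1822 with an intensity trend, 377 at a threshold of 0.01, 1561 at 0.1 and 172 to 237 without 1 array. The sterol branch, with 3 genes lower and 1 higher, had 0 and 0 without 1 array and at 0.01 in limma (7 at an unadjusted p under 0.05 with 4 arrays), and 1 lower when probe sets were tested singly, where its median was -0.067 over 35 probe sets in place of -0.13. The regulators had 1 call, and 0 without 1 array, at 0.01, with the mean of probe sets and with single probe sets. The fatty acid branch had 1 gene lower, and 2 with an intensity trend and at 0.1 (ELOVL6 added) and 2 with single probe sets (both FAR2). The filter kept 13038 genes at a mean of 5.79 or more. It removed FAR2, and PMVK and ELOVL6 then passed; with fewer genes tested the adjustment is milder. PMVK and ELOVL6 also passed with an intensity trend, and PMVK with the mean of probe sets; the cause was not tested. Median centring and a second quantile normalization kept all 6 calls.

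With the replicate number as a block, 520 genes passed over all, 1 lower and 0 higher in the sterol branch (SQLE, adjusted p = 0.040), 0 regulators and 1 fatty acid gene (FAR2, adjusted p = 0.0058). HMGCS1 (0.077), TM7SF2 (0.057), MSMO1 (0.083) and INSIG1 (0.104) did not pass. Of the neighbouring genes SOAT1 passed (0.019), and ABCA1 (0.051), ACSS2 (0.061), HSD17B12 (0.066), ACSL5 (0.095) and DGAT2 (0.107) did not. The labels do not say that a number marks a shared batch. The deviations of same-numbered arrays from their group means correlated at 0.15 over genes, with 2 pairs, too few to show a pairing, so the block gives no measure of a weaker effect.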
